A study of Mus musculus with 12 samples.

Results

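Leukaemia inhibitory factor (LIF) signalling was examined through 7 genes of the LIF and Stat3 pathway, taken from a list of gene identifiers: the ligand Lif (ENSMUSG00000034394), the receptor chains Lifr (ENSMUSG00000054263) and Il6st (ENSMUSG00000021756), the transcription factor Stat3 (ENSMUSG00000004040), and its target genes Socs3 (ENSMUSG00000053113), Pim1 (ENSMUSG00000024014) and Bcl3 (ENSMUSG00000053175). They are 7 of the 56941 genes in the deposited mRNA table, and all 7 passed the filter on low values that left 16793 genes to test. The cells were E14TG2a, a mouse embryonic stem cell line, in 3 genotypes: wild type (WT), Alkbh5 KO, and Alkbh5 del-cIDR, in which the demethylase lacks its C-terminal intrinsically disordered region. Alkbh5 is an enzyme that removes the N6-methyladenosine mark (m6A) from RNA. The series holds 12 samples, an RNA input and an m6A immunoprecipitate for 2 replicates of each genotype, and gene levels come from the 6 input libraries. All 3 genotypes were grown in serum (15%) with 1000 U/ml LIF, 1 µM PD0325901, a MEK inhibitor, and 3 µM CHIR99021, a GSK3 inhibitor, so LIF was supplied to every sample. The labels do not say whether a genotype is 1 clone or several, or whether replicates are separate cultures. The names of both KO libraries share a number that the labels do not explain. The p-values thus measure only the spread between these libraries, which may be technical. A difference between genotypes cannot be told apart from a difference between the clones that carry them.

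LIF binds a receptor made of 2 chains, Lifr, which recognises the ligand, and Il6st (gp130), which is shared with the receptors of interleukin 6 and related cytokines. The bound receptor activates Janus kinases, which phosphorylate Stat3. Phosphorylated Stat3 pairs, enters the nucleus and switches on target genes. In mouse embryonic stem cells this pathway is known for sustaining self-renewal, and Socs3, itself a target, is an inhibitor that binds the receptor complex and dampens the signal. These steps act on protein, so mRNA levels describe the supply of the components and not how active the pathway was.

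Stat3 binds DNA at the palindrome TTCNNNGAA, which reads the same on both strands. The 250 bases before the RefSeq start site were searched for it in the 7 genes (9 promoters, because Lifr and Pim1 have an extra start), and only the Socs3 promoter held it. It occurs in 7.02% of all 32851 RefSeq promoters searched. The GC box GGGCGG was searched on both strands and chosen after the sequences were seen. It lay in 6 of the 9 promoters, beside 32.7% of all promoters. Each of the 7 genes except Lif had a promoter with it. The promoters of Socs3 and of the 3 genes whose levels differed between genotypes are shown, 5′ to 3′ on the strand of the gene, with matches to either motif in capitals. Positions are in GRCm38.p6, the build of the RefSeq table: chr11:117969367-117969616 (minus strand) for Socs3, chr11:100939541-100939790 (minus strand) for Stat3, chr13:112463820-112464069 (plus strand) for Il6st and chr11:4257318-4257567 (plus strand) for Lif.
Socs3: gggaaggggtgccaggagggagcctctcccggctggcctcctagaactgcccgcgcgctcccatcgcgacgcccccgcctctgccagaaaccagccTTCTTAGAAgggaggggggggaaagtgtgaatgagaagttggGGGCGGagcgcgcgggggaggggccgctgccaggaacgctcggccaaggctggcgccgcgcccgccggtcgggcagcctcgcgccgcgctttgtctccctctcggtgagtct
Stat3: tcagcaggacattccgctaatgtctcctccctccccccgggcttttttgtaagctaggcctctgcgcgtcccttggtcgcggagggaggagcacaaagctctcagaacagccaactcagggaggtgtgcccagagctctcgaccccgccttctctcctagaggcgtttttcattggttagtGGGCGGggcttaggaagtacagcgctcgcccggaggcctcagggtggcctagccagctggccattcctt
Il6st: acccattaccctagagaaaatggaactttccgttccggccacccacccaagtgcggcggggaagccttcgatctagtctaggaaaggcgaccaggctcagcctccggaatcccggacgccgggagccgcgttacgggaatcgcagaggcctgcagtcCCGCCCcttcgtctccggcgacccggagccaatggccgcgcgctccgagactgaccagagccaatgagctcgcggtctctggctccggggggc
Lif: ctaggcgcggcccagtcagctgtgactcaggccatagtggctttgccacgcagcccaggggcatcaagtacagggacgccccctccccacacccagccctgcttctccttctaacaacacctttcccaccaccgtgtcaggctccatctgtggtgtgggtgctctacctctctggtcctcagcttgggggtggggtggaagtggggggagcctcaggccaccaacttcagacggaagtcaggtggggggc
In Socs3 the match is TTCTTAGAA, from 154 to 146 bases before the RefSeq start. Which start these cells use was not analysed here, and another start would give another window. A match describes the letters only, and its absence says that these letters are not in this window.

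The input libraries held between 19918177 reads in genes (del-cIDR replicate 2) and 36678609 (KO replicate 1). Levels are given in RPM, the reads of a gene per 1000000 reads in genes of the same library, which are not corrected for transcript length, so they are compared between libraries and not between genes. Changes are on the log2(RPM + 0.5) scale, each with its standard error (SE) and a p adjusted by Benjamini-Hochberg over all 16793 genes, from 1 limma fit of the 3 genotypes, and a change was called at an adjusted p under 0.05. A permutation of 2 libraries against 2 cannot give a p below 0.333, so single genes were tested in models fitted across all genes. The limma fit takes most of the spread of a gene from genes of like level. The comparisons with WT share the WT libraries.

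The files list genes by identifier, and the names of the 7 genes come from the list that chose them. The RefSeq table used here, of 49997 genes, matched 0 of the identifiers, so the level of Alkbh5 in the KO libraries, markers of stem cells or of other cell types, and further members of the pathway such as the Janus kinases were not analysed here. The m6A peaks are placed in GRCm39 and the RefSeq genes in GRCm38.p6, so m6A within the 7 genes was not analysed here either.

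Changes between genotypes were called in the ligand, one receptor chain and Stat3. No change was called in the target genes, as was so for most tested genes in each comparison. Whether the target genes differ in this from the other listed genes was not tested. Against WT, Lif and Il6st were called lower in KO and Il6st was called lower in del-cIDR. Of 18 alternative settings, 8 did not call Lif in KO and 10 did not call Il6st in del-cIDR. Between the altered genotypes, del-cIDR cells had more Lif and Il6st and less Stat3 than KO cells. On the scale of the deposited values 0 of the 7 genes were called in each comparison. There the Stat3 difference between the altered genotypes had the opposite sign. In such bulk RNA, fewer cells that express a gene and less of its RNA per cell cannot be told apart. In KO against WT 2 of 7 genes were called, where 27.7% of all tested genes were. In del-cIDR against WT it was 1 of 7, beside 11.7% of all genes, and in del-cIDR against KO 3 of 7, beside 39.4%. With 7 members, none of these counts sets the list apart from the rest of the genes. The median change of the 7 genes was -0.08, -0.09 and 0.04 in the 3 comparisons in that order, against 0.00, -0.01 and -0.02 over all tested genes. The median size of a change, regardless of direction, was 0.11, 0.16 and 0.11 in the 7 genes and 0.19, 0.14 and 0.23 in all. These groups are not matched for level: the 7 genes have means of 5.40 (Lif) to 177 RPM (Stat3), and all tested genes reach down to 0.5 RPM. A separate fit to the 11214 genes with a mean of at least 5 RPM called 3812, 1747 and 5310 of them in the 3 comparisons. In each comparison this is a larger share than among all tested genes. Of the 7 genes, this fit called 2, 1 and 3.

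**Figure D1:**
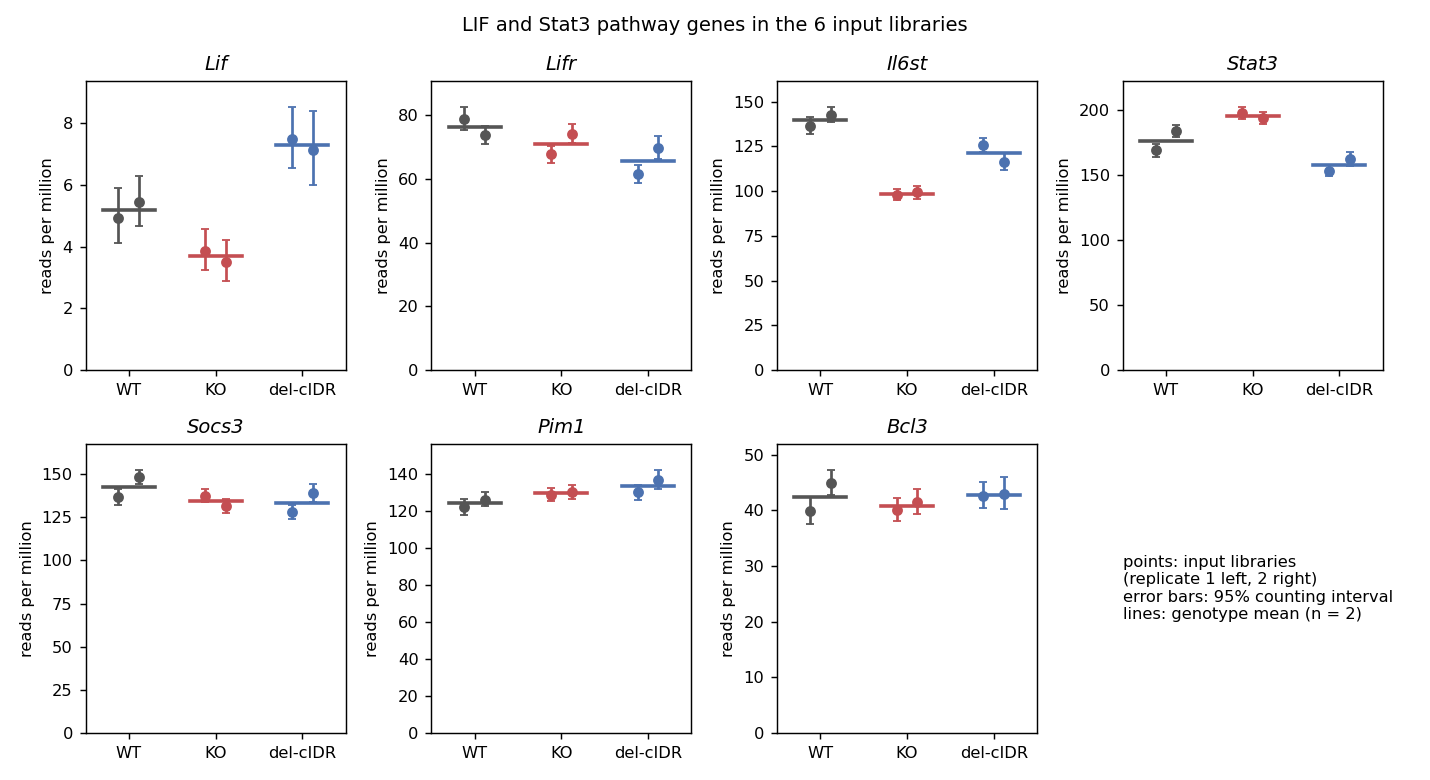
Level of each of the 7 genes in the 6 input libraries, in RPM on a linear axis from 0, with the 95% counting interval of each library as error bars and the genotype mean (n = 2) as a line. Il6st and Lif are lowest in both KO libraries. Lif is highest in both del-cIDR libraries and Stat3 is highest in KO, neither of which holds on the deposited scale. Socs3, Pim1 and Bcl3 span at most 1.16-fold between the lowest and highest library in RPM, and more as deposited.

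Lif encodes the ligand itself, a secreted cytokine, which in these cultures was also supplied in the medium. WT libraries held 4.94 and 5.44 RPM of Lif (124 and 185 reads), KO libraries 3.87 and 3.51 (142 and 116 reads), and del-cIDR libraries 7.49 and 7.13 (232 and 142 reads). In RPM the genotypes did not overlap: both KO libraries were the lowest and both del-cIDR libraries the highest of the 6. Separation of this kind is common here, in one direction or the other: it was found in 65.8% of all tested genes for KO against WT, 50.7% for del-cIDR against WT and 69.8% for del-cIDR against KO. The highest library stood 2.13-fold above the lowest, the widest span of the 7 genes.

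Against KO, Lif in del-cIDR was higher by 0.90 (SE 0.16, adjusted p = 0.000122, limma), with means of 7.31 ± 0.25 and 3.69 ± 0.25 RPM (SD, n = 2 each). Counting intervals of the del-cIDR libraries, 6.56 to 8.52 and 6.00 to 8.40 RPM (exact Poisson, 95%, counting error only), lay above those of the KO libraries, 3.26 to 4.56 and 2.90 to 4.21. This difference was called in 17 of 18 alternative settings, and in the remaining one, the scaling of the deposited values, the change was 1.51 (adjusted p = 0.0543).

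The fall of Lif in KO against WT was smaller, -0.44 (SE 0.16, adjusted p = 0.0437, limma), from 5.19 ± 0.35 to 3.69 ± 0.25 RPM (SD, n = 2 each). In 8 of 18 alternatives it was not called, and leaving out any library of either genotype ended the call: the adjusted p was 0.0755 without WT replicate 1, 0.175 without WT replicate 2, 0.113 without KO replicate 1 and 0.260 without KO replicate 2. The counting interval of WT replicate 1, 4.11 to 5.89 RPM, also met those of KO replicate 1 and KO replicate 2. In del-cIDR against WT the change was 0.46 (SE 0.16, 95% interval 0.13 to 0.79), which was not called (adjusted p = 0.0661, limma), although it was with each library centred on its median (0.49, adjusted p = 0.0485).

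Il6st encodes gp130, the signal-transducing chain. Its level was 137 and 143 RPM in the WT libraries, 98.0 and 99.3 RPM in the KO libraries, and 126 and 116 RPM in the del-cIDR libraries. All 3 genotypes were separate, with KO lowest, del-cIDR between and WT highest. For each pair of genotypes, separation was found in 50.7% to 69.8% of all tested genes. The loss in KO was 29.4% of the WT mean, from 140 ± 4.34 to 98.6 ± 0.90 RPM (SD, n = 2 each).

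On the log2 scale Il6st fell by 0.50 in KO (SE 0.06, adjusted p = 3.79e-06, limma), the smallest p among the 7 genes in any comparison. In this comparison 428 of the tested genes had a smaller p. Leaving out any 1 library kept the change between -0.53 and -0.47 and the call. In the 18 alternatives the call ended only with the deposited scaling (-1.42, adjusted p = 0.0761).

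In del-cIDR the level of Il6st was 121 ± 6.85 RPM (SD, n = 2), 13.3% below WT. The change of -0.21 (SE 0.06) was called with an adjusted p of 0.0361 (limma), but 10 of 18 alternatives did not call it. Among these were the omission of WT replicate 1 (adjusted p = 0.0612), WT replicate 2 (0.184), KO replicate 1 (0.0819), KO replicate 2 (0.0818) or del-cIDR replicate 2 (-0.15, adjusted p = 0.199), as well as centring on library medians (-0.18, adjusted p = 0.0519). Set against KO, Il6st in del-cIDR was higher by 0.29 (SE 0.06, adjusted p = 0.00076, limma), and this held without each of the 6 libraries (0.24 to 0.35, largest adjusted p = 0.0185).

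Lifr encodes the chain that recognises LIF. The WT libraries had 78.9 and 73.8 RPM, the KO libraries 67.7 and 74.2, and the del-cIDR libraries 61.6 and 69.8. KO overlapped with both other genotypes, whereas del-cIDR lay just below WT, with its higher library at 0.946 times the lower WT library. Separation of del-cIDR from WT was found in 50.7% of all tested genes. No change was called: -0.11 in KO (95% interval -0.26 to 0.05, adjusted p = 0.318, limma), -0.22 in del-cIDR against WT (-0.37 to -0.06, adjusted p = 0.0653), and -0.11 in del-cIDR against KO (-0.27 to 0.05, adjusted p = 0.258). The change against WT rested on which del-cIDR library was kept: it was -0.31 and was called without replicate 2 (adjusted p = 0.0211, limma), and -0.13 without replicate 1 (adjusted p = 0.314).

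The receptor chains thus gave unlike values in KO, with a mean Il6st level 0.706 times that of WT and a mean Lifr level 0.929 times that of WT. Whether the changes of the chains differ from each other was not tested.

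**Figure D2:**
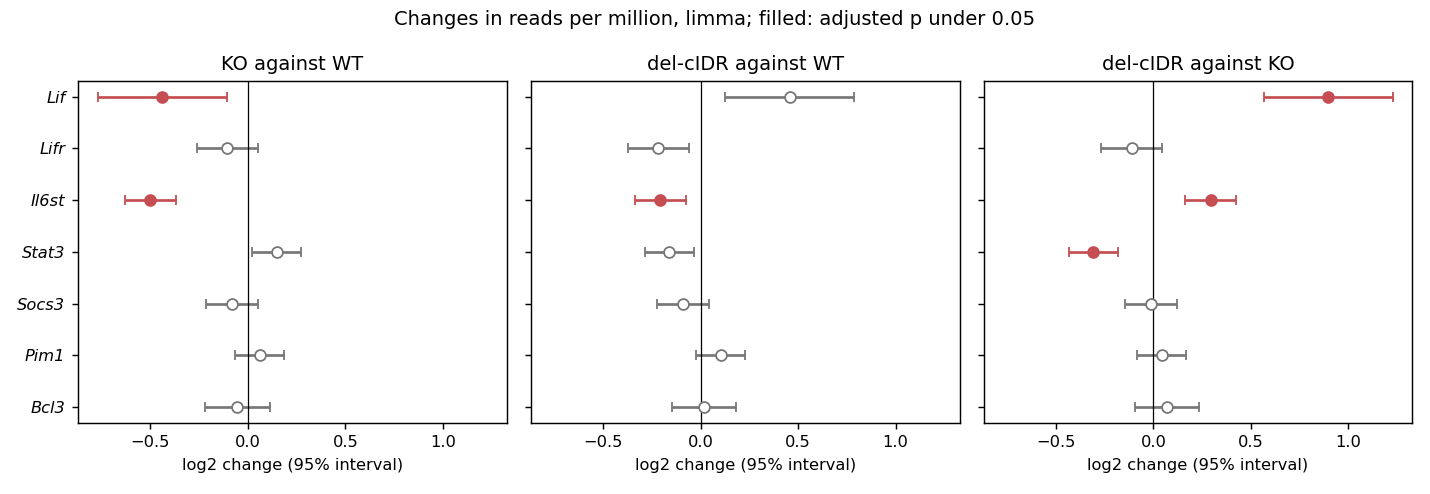
Log2 change of each gene (log2 of RPM + 0.5) with its 95% interval from limma, in the 3 comparisons. Filled points passed an adjusted p under 0.05. They are Lif and Il6st in KO against WT, Il6st in del-cIDR against WT, and Lif, Il6st and Stat3 in del-cIDR against KO. On the deposited scale 0 of the 7 genes passed, and Stat3 in del-cIDR against KO has the opposite sign.

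Stat3, the transcription factor downstream of the receptor, moved the other way from Lif and Il6st between the altered genotypes. WT libraries held 169 and 184 RPM of Stat3, KO libraries 197 and 194, and del-cIDR libraries 153 and 162. The genotypes did not overlap, with del-cIDR lowest and KO highest. As for Il6st, each pair was separate in 50.7% to 69.8% of all tested genes.

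In del-cIDR Stat3 was lower than in KO by 19.3%, with means of 158 ± 6.30 and 196 ± 2.64 RPM (SD, n = 2 each) and a log2 change of -0.31 (SE 0.06, adjusted p = 0.00035, limma). Leaving out each library gave -0.35 to -0.27, with a largest adjusted p of 0.0119. On the deposited scale the sign turned, to 0.40 (adjusted p = 0.557), where the median of all tested genes moved by 0.63.

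A difference of Stat3 from WT was called in neither genotype. KO stood 0.15 above WT (SE 0.06, adjusted p = 0.0737, limma) and in del-cIDR the change was -0.16 (SE 0.06, adjusted p = 0.0926). The 95% intervals were 0.02 to 0.27 and -0.29 to -0.03. The KO difference was called in 4 alternatives, among them without WT replicate 2 (0.21, adjusted p = 0.0336), while without WT replicate 1 it was 0.09 (adjusted p = 0.393). It was also called when the del-cIDR libraries were left out of the model (adjusted p = 0.0453) and without del-cIDR replicate 1 or 2 (adjusted p = 0.0455 and 0.0452), which change only the estimate of the spread.

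Socs3 encodes the feedback inhibitor of the receptor complex. Socs3 stood at 137 and 148 RPM in the WT libraries, 137 and 131 in the KO libraries, and 128 and 139 in those of del-cIDR. The libraries of all genotypes overlapped, with genotype means of 142 ± 8.31, 134 ± 4.21 and 134 ± 7.61 RPM in that order (SD, n = 2 each). The limma intervals for the log2 change were -0.22 to 0.05 in KO against WT (adjusted p = 0.371), -0.23 to 0.04 in del-cIDR against WT (adjusted p = 0.390) and -0.14 to 0.12 in del-cIDR against KO (adjusted p = 0.920). A change as low as -0.23 on the log2 scale is thus within the interval of a comparison with WT.

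Pim1 encodes a serine/threonine kinase that promotes survival and growth. The WT libraries had 122 and 126 RPM, the KO libraries 129 and 130, and the del-cIDR libraries 130 and 137. Both altered genotypes lay above WT without overlap, by 4.25% and 7.45% of the mean. Separation from WT, in either direction, was found in 65.8% (KO) and 50.7% (del-cIDR) of all tested genes. Neither change was called, at 0.06 (95% interval -0.06 to 0.18, adjusted p = 0.497, limma) and 0.10 (-0.02 to 0.23, adjusted p = 0.293). Between the altered genotypes the change was 0.04 (-0.08 to 0.17, adjusted p = 0.603).

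Bcl3 encodes an atypical IκB protein that acts as a nuclear cofactor of NF-κB. The WT libraries, at 39.9 and 44.9 RPM, were also the lowest and the highest of the 6. KO had 40.1 and 41.5 RPM and del-cIDR 42.6 and 43.0. Every change was within 0.07 of 0 (95% intervals -0.22 to 0.11 in KO against WT, -0.15 to 0.18 in del-cIDR against WT and -0.10 to 0.23 in del-cIDR against KO, adjusted p from 0.524 to 0.926, limma). Socs3, Pim1 and Bcl3 spanned 1.16-fold, 1.12-fold and 1.13-fold between their lowest and highest library, against 1.46-fold for Il6st, 1.29-fold for Stat3 and 1.28-fold for Lifr.

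Reads of one gene per read of another in the same library carry no scaling between libraries. Stat3 was taken as the common denominator after the values were seen, so the ratios are a description with no test, and they share the variation of Stat3. For each read of Stat3, WT libraries held 0.808 and 0.776 reads of Il6st, KO libraries 0.496 and 0.512, and del-cIDR libraries 0.821 and 0.716. The KO ratio was 0.637 times that of WT, while del-cIDR overlapped WT, with means of both genes below those of WT.

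For Socs3 the ratio to Stat3 was 0.807 and 0.806 for the WT libraries, 0.696 and 0.678 for the KO libraries, and 0.835 and 0.856 for the del-cIDR libraries. The ratio was thus separate between genotypes. In RPM, Socs3 overlapped and Stat3, the denominator, did not, so the separation is no trait of Socs3 alone. The ratio of Lif was 0.0292 and 0.0295 (WT), 0.0196 and 0.0181 (KO), and 0.0488 and 0.0439 (del-cIDR). All 6 ratios were lower in KO than in WT without overlap, as were 50.7% of all tested genes, and against KO all 6 were higher in del-cIDR, as were 61.6%. In del-cIDR against WT, 4 of 6 were higher without overlap (Lif, Socs3, Pim1 and Bcl3), as were 44.6% of all tested genes.

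**Figure D3:**
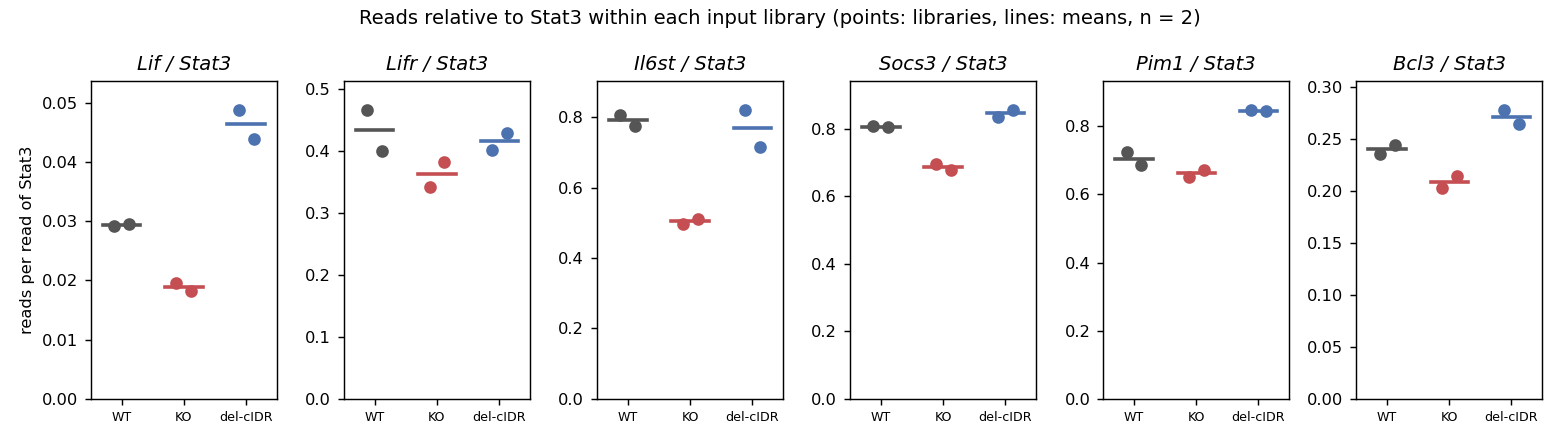
Reads of each gene per read of Stat3 within the same input library, on linear axes from 0, with libraries as points and genotype means (n = 2) as lines. All 6 ratios are lowest in KO. Il6st falls from 0.792 in WT to 0.504 in KO on average, and Lif rises from 0.0189 in KO to 0.0464 in del-cIDR.

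The deposited values are reads multiplied by a factor per library that runs from 1 (KO replicate 2) to 2.98 (WT replicate 1), and on that scale most genes are lower in KO. The median of all tested genes then moved by -0.85 in KO against WT, -0.21 in del-cIDR against WT and 0.63 in del-cIDR against KO, and 655, 1 and 479 genes were called (limma). On it 0 of the 7 genes were called in each comparison (limma). An unadjusted p under 0.05 was found for 4 of them in KO against WT (Lif, Lifr, Il6st and Socs3, all lower), for 0 in del-cIDR against WT, and for 2 in del-cIDR against KO (Lif and Il6st, both higher).

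All 7 genes then had lower means in KO than in WT, with changes from -0.77 for Stat3 to -1.42 for Il6st. Relative to the median of all genes, Il6st stood at -0.57, Lif at -0.39, Stat3 at 0.08 and Pim1 at -0.01. In del-cIDR against KO the relative values were 0.88 for Lif, 0.37 for Il6st and -0.23 for Stat3. The deposited levels of Il6st were 10226 and 10275 (WT), 4438 and 3277 (KO), and 10822 and 5390 (del-cIDR), so that the del-cIDR libraries spread widely on this scale and reached past both WT libraries. Those of Stat3 were 12655 and 13246 (WT), 8943 and 6396 (KO), and 13179 and 7524 (del-cIDR).

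**Figure D4:**
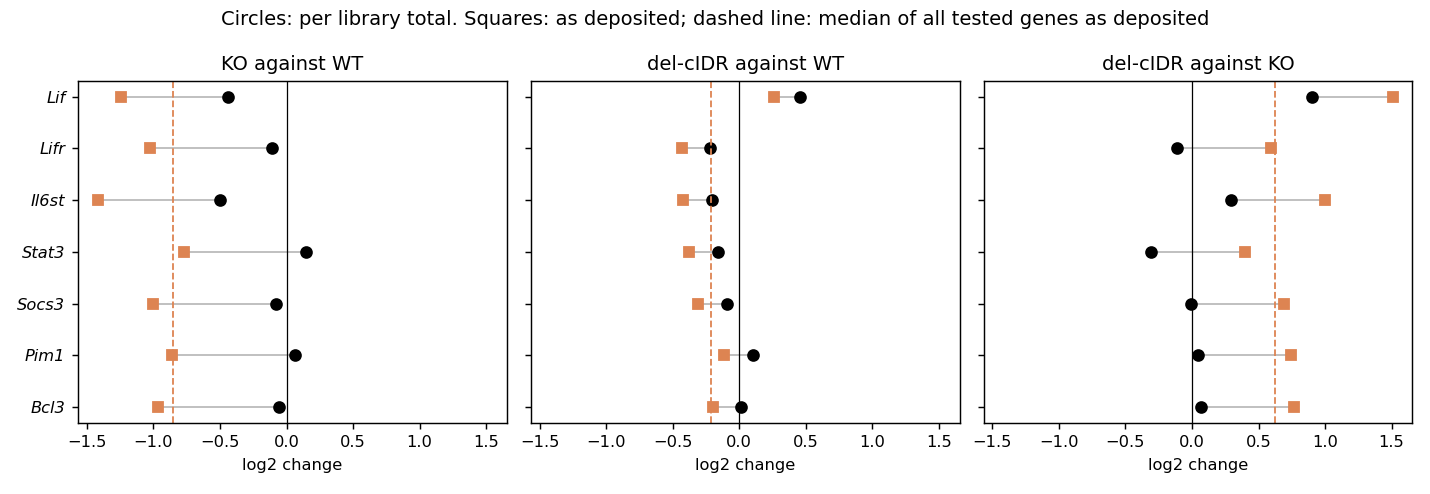
Log2 change of each gene after division by the library total (circles) and as deposited (squares), with the median of all tested genes as deposited (dashed line: -0.85, -0.21 and 0.63). The squares follow the dashed line, and Lif and Il6st keep the same side of it as their circles keep of 0.

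Among 11207 other genes with a mean of at least 5 RPM, the one whose profile over the 6 libraries came closest to that of Stat3 was ENSMUSG00000033819, with a root mean square difference of 0.013 on the log2 scale after each gene was centred on its mean. Its WT libraries had 25.3 and 27.2 RPM, its KO libraries 29.9 and 28.6, and its del-cIDR libraries 22.8 and 23.9. The one closest to Socs3 was ENSMUSG00000025371 (0.014), with 26.1 and 28.03 RPM in the WT libraries, 26.6 and 25.1 in the KO libraries, and 24.95 and 26.7 in the del-cIDR libraries. The likeness is a description over 6 libraries, and the files do not pair these identifiers with symbols.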

How the data were processed

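RNA input libraries of 3 genotypes (2 each) were analysed. Per the submitters' processing notes, the tools included HISAT2 and featureCounts and the genome build was GRCm39. For the gene annotation and the strand setting of the counting, nothing is given in the sources used here. In 5 libraries the deposited mRNA values are a signal, the reads of a gene multiplied by a factor of that library, and in KO replicate 2 the deposited values are counts, with a factor of 1. The basis of the factors is not stated in the labels. Division by the factor gave whole reads for 100% of values in each library (tolerance 0.001 reads), and these were divided by the library total to give RPM (reads per 1000000).

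With limma 3.58.1 (R 4.3.3), 1 model was fitted to log2(RPM + 0.5) for genes with a mean of at least 0.5, with a variance trend in eBayes and Benjamini-Hochberg adjustment at 0.05. edgeR 4.0.16 on the recovered reads called 4897, 1978 and 6744 genes in KO against WT, del-cIDR against WT and del-cIDR against KO, where limma called 4649, 1957 and 6622. DESeq2 1.42.0 on the same reads called fewer, 3891, 1540 and 5572 genes. The limma fit was tested on simulated data. Between the replicates of a genotype, reads varied 3.02 to 6.50 times as much as sampling alone gives. The replicates thus differ by more than repeated sequencing of 1 library would give. Whether they came from the same culture or RNA cannot be told from this. Intervals cover counting error only. All 7 genes are named whatever their values, as is the gene closest in profile to Stat3 and to Socs3. The 7 genes and the tests were chosen with earlier results of these data known. Other software was pandas 2.3.3 and matplotlib 3.10.9 under Python 3.11.15.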

Additional observations from a re-analysis of the deposited data

How the results depend on the processing

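Over 18 alternatives for each of the 7 genes in 3 comparisons, 336 of 378 results kept their direction and their side of the threshold, 21 lost a call, 6 gained one and 15 changed sign. The number of the 7 genes called in KO against WT (2) was 1 with no filter on low values, with a replicate block and with DESeq2, 0 with the deposited scaling, 3 with only the 2 genotypes compared, and 1 to 3 when a library was left out. In del-cIDR against WT (1) it was 0 with no filter, the deposited scaling, no variance trend, or only the 2 genotypes compared, and 0 to 1 when a library was left out; with median centring Lif took the place of Il6st, and without del-cIDR replicate 2 Lifr did. In del-cIDR against KO (3) it was 0 with the deposited scaling, and otherwise the same genes were called in every alternative. Over all genes, calls in KO against WT (4649) were 655 with the deposited scaling, 2746 without the variance trend and 2631 to 5369 with a library left out. In del-cIDR against WT (1957) they were 927 with no filter, 1 with the deposited scaling, 229 without the trend and 900 to 2197 with a library left out. In del-cIDR against KO (6622) they were 479 with the deposited scaling and 4409 to 6699 with a library left out. Median centring moved the share of higher calls in del-cIDR against WT from 38.8% to 50.05%, and the deposited scaling moved it to 1.37%, 0% and 96.5% in the 3 comparisons, from 52.1%, 38.8% and 46.3%. The sign turned with the deposited scaling for Stat3 (-0.77) and Pim1 (-0.86) in KO against WT, for Pim1 (-0.11) and Bcl3 (-0.20) in del-cIDR against WT, and for Lifr (0.59), Stat3 (0.40) and Socs3 (0.69) in del-cIDR against KO; it follows the shift of all genes on that scale. Of these, only Stat3 in del-cIDR against KO had been called. The near-zero change of Socs3 in del-cIDR against KO also turned with TMM scaling (0.0075), median centring (0.012), edgeR (0.0064), DESeq2 (0.0086), and without KO replicate 1 (0.022) or del-cIDR replicate 1 (0.048), in a range of -0.068 to 0.048 with a library left out. Bcl3 turned without WT replicate 2 in KO against WT (0.031, range -0.14 to 0.031) and without WT replicate 1 in del-cIDR against WT (-0.069, range -0.069 to 0.10). The labels do not say that replicate numbers pair the samples, and deviations of same-numbered libraries correlated at -0.23, -0.13 and 0.21 over 11214 genes. With the replicate number as a block, 4494, 1826 and 6450 genes were called, and of the 7 genes only Lif in KO against WT lost its call (adjusted p = 0.0571). With 1 library left in a genotype, it was assumed to vary like the others. Lif rests on 116 to 232 reads per library, which limits its precision. The alternatives planned for m6A peaks were not run, because no peak could be placed in the 7 genes.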
